A study of Mus musculus with 12 samples.

Results

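The genes examined are 43 genes of DNA replication, taken by symbol from a list of origin licensing, origin firing and replication fork factors, out of 55335 gene rows. All 43 were found in both count tables, and all 43 passed the filter on low counts in RNA-seq, in footprints and in the test of translation. The list was set by gene function and not by a cutoff on a measured value, though earlier results of these data were known when it was chosen.

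Thymocytes of mice aged 6 weeks were profiled in 12 libraries, in 4 groups of 3: RNA-seq of wild type (WT), RNA-seq of the miR-181a/b-1 knockout (KO), ribosome footprints of WT and ribosome footprints of KO. Ribosome footprinting sequences the mRNA fragments that ribosomes shield from nuclease, so its reads report ribosome occupancy. All groups shared the same handling: cells were strained from the thymus and placed in buffer with 0.1 mg per ml cycloheximide, a drug that stalls ribosomes. The sources used here give neither the strain and sex nor how the KO allele was made, and do not say whether an RNA-seq and a footprint library share a mouse.

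A cell copies its genome once per cycle. In G1 the origin recognition complex marks start sites, and Cdc6 and Cdt1 load the ring-shaped Mcm2 to Mcm7 helicase onto them, a step called licensing. Cyclin E with Cdk2, and the Cdc7-Dbf4 kinase, then fire the licensed origins: Mcm10, Cdc45 and the GINS complex turn the ring into an active helicase. At the fork, RPA coats single-stranded DNA, primase and polymerase alpha start each strand, polymerases epsilon and delta extend it on the Pcna clamp that the Rfc complex loads, and Fen1 and Lig1 join the lagging strand. In the thymus most replication takes place in blasts that have just passed the pre-T-cell receptor checkpoint, while most CD4 CD8 double-positive cells rest. Transcription of many replication genes is driven by E2F factors when cells enter S phase.

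The microRNAs encoded at the locus deleted in KO share their seed, the bases that pair with target mRNAs. Their mature sequences, credited to RefSeq (GRCm38.p6), are shown because the genotypes differ by this locus. The seed, bases 2 to 8, is in capitals. Levels of the mature microRNAs were not examined. The miR-181a-5p sequence lies at chr1:137966468-137966490 and the miR-181b-5p sequence at chr1:137966650-137966673, both on the plus strand.

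miR-181a-5p: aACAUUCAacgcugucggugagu
miR-181b-5p: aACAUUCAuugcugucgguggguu

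A sequence feature that the list did not use was more frequent in promoters of the replication genes than in those of all genes. RefSeq promoters of GRCm38.p6 (250 bases before to 50 after the start, 300 in all) were matched for 35 of the 43 genes. An E2F match, meaning TTTCCCGC, TTTCGCGC, TTTGCCGC or TTTGGCGC on either strand, occurred in 14 of the 35 genes (40.0%). It occurred in 704 of all 27025 genes of the promoter table (2.6%) and in 575 of its 17492 protein-coding genes (3.29%). At least 2 separate matches, with overlapping ones counted once, were found in 4 of the 35 genes (11.4%: Mcm3, Mcm6, Mcm7 and Rfc3), against 0.0999% of all genes. A CCAAT box on either strand was more evenly spread, with 21 of 35 replication genes (60%) and 41.1% of all genes. At least 2 CCAAT boxes were found in 13 of the 35 (37.1%), against 13.0% of all genes. The other 10 genes with an E2F match were Orc1, Orc3, Cdc6, Cdt1, Mcm5, Gins3, Pola1, Pole2, Pold1 and Lig1. A match is a description of these letters and was not tested for binding.

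Windows of 28 bases around a match are shown for the 4 helicase genes that have one and for a gene of origin recognition, of helicase loading and of the clamp loader. Each is written 5′ to 3′ on the strand of its gene, with 1 match, or 1 stretch of overlapping matches, in capitals. They lie at chr1:20820276-20820303 (Mcm3, minus strand), chr8:75109348-75109375 (Mcm5, plus), chr1:128359796-128359823 (Mcm6, minus), chr5:138171850-138171877 (Mcm7, minus), chr4:108579417-108579444 (Orc1, plus), chr11:98908003-98908030 (Cdc6, plus) and chr5:151651201-151651228 (Rfc3, minus).

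Mcm3: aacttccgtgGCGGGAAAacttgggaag
Mcm5: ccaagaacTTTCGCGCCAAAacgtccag
Mcm6: cgtatgctTTTGGCGCGAAAagtgcgtg
Mcm7: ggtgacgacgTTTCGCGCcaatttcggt
Orc1: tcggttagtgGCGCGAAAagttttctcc
Cdc6: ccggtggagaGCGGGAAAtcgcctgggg
Rfc3: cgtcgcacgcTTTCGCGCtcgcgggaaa

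In Mcm5 and Mcm6 the capitals cover overlapping matches on both strands, and the lower-case end of the Rfc3 window holds its other match. The whole Mcm6 promoter, chr1:128359656-128359955 on the minus strand, is shown as the example with both features: 2 separate stretches of E2F matches, in capitals, and 2 CCAAT boxes, read on the other strand as ATTGG.

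Mcm6 promoter: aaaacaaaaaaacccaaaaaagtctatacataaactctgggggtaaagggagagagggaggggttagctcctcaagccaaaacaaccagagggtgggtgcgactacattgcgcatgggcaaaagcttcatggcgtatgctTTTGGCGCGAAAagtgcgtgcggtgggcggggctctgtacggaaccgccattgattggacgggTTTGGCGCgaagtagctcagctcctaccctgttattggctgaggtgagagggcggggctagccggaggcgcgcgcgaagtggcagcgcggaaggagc

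Depth and the check of labels come before the comparisons. Reads in genes numbered 4479182 to 8180286 per RNA-seq library, with 11326 to 20293 of them in the replication genes, and 4069968 to 17859770 per footprint library, with 27127 to 129235 in the replication genes. The Mir181a-1 row of the deleted locus had 148 ± 16.8 CPM (reads scaled to the library total) in WT footprints and 0.828 ± 0.317 CPM in KO footprints (SD, n = 3). In RNA-seq it had 2.81 ± 1.62 and 3.27 ± 1.59 CPM (SD, n = 3), so it was lower in KO in footprints alone. The genotypes of the RNA-seq libraries are taken from their labels, which this row does not bear out. Across genes, the deviations of same-numbered WT and KO libraries from their group means were mirror images, with r of -0.98 to -0.96 over 9767 genes in RNA-seq and -0.99 over 8715 in footprints. For the 43 replication genes alone r was -0.99 in RNA-seq and -1 to -0.99 in footprints. Spread within a group of these deposited counts may therefore not measure the spread between mice, which holds for every SD, SE and p below.

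No replication gene changed between KO and WT by the test used. In RNA-seq 0 of 43 were called (edgeR quasi-likelihood test, Benjamini-Hochberg FDR under 0.05), where 6.91% of all 13652 genes tested were. In footprints 0 of 43 were called, where 17.6% of all 13509 genes were. In the test of translation, the change in footprints beyond that in RNA, 0 of 43 were called, where 0.211% of 11854 genes were. With the replicate number as a block, 0 of 43 were called in either assay, where 0.806% of genes in RNA-seq and 3.02% in footprints were. At an unadjusted p under 0.05 lay 4 replication genes in RNA-seq, 3 higher and 1 lower (23.8% of all genes), 10 in footprints, 3 higher and 7 lower (33.1%), and 6 in translation, 1 higher and 5 lower (14%). With the block those counts were 0, 3 and 1. DESeq2 called 0 of 43 in RNA-seq and for translation, and 2 in footprints, Orc6 and Ccne1.

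The measured differences were small. The median log2 fold change, KO against WT, of the 43 genes was 0.05 in RNA-seq, from -0.36 (Rpa3) to 0.31 (Orc1), with 27 above and 16 below 0. Without WT 1 or KO 1 the RNA-seq median was -0.0017 or -0.0055. In footprints it was -0.03, from -0.51 (Ccne1) to 0.21 (Gins2), with 15 above and 28 below 0, and without WT 3 or KO 3 the median was 0.0019 or 0.0056. Over all genes tested the medians were -0.00053 and -0.009. The range between the 25th and the 75th percentile was -0.06 to 0.13 in RNA-seq, against -0.18 to 0.16 over all genes, and -0.10 to 0.06 in footprints, against -0.17 to 0.16. Differences under 1.2-fold were measured for 40 of 43 replication genes in each assay (93%), against 68.1% of all genes in RNA-seq and 67.4% in footprints. The 95% interval lay within 1.5-fold either way for 36 of 43 in RNA-seq and 40 of 43 in footprints, against 62.1% and 64.7% of all genes. With the replicate block, whose intervals are wider, the counts were 34 and 40 of 43, against 45.2% and 53.5%. The replication genes also had higher levels than all genes. Their median log2 CPM was 5.519 against 4.505 in RNA-seq and 6.484 against 4.223 in footprints. How far the narrower spread and intervals follow from that level was not tested.

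**Figure D1:**
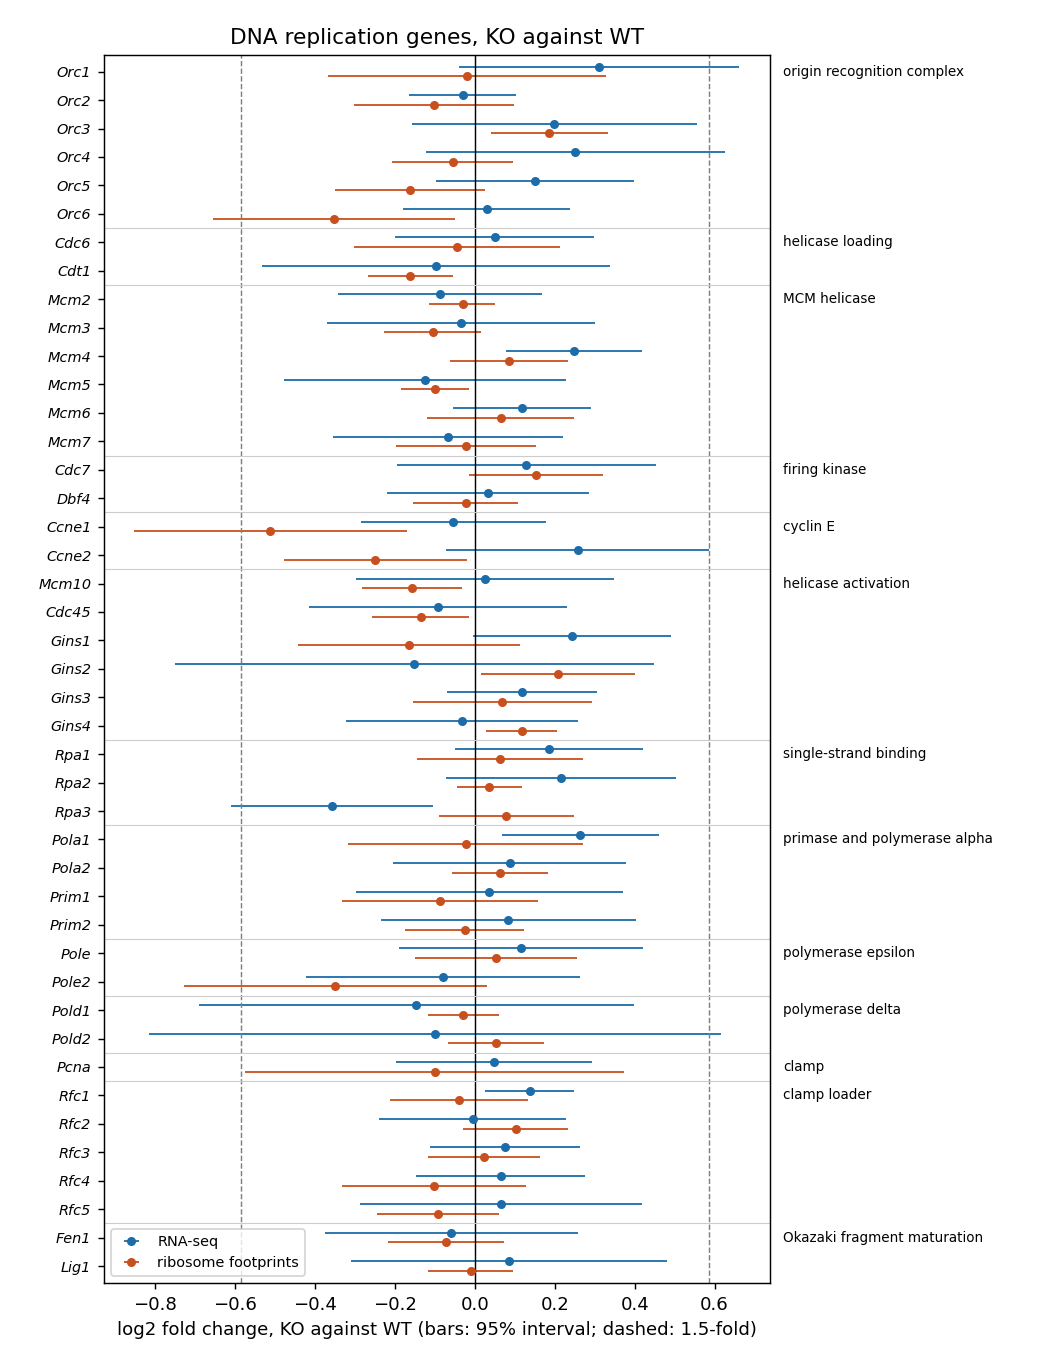
Log2 fold change of KO against WT on the x axis for each of the 43 genes, grouped by role, in RNA-seq (blue) and ribosome footprints (orange), with 95% intervals and dashed lines at 1.5-fold. Points lie between -0.36 and 0.31 in RNA-seq and between -0.51 and 0.21 in footprints, and Ccne1 is the lowest footprint point.

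The origin recognition complex, which binds start sites of replication, had 5 of 6 subunits above 0 in RNA-seq and 5 of 6 below 0 in footprints, none called by edgeR; DESeq2 called Orc6 in footprints (adjusted p 0.0235). Orc6, its smallest and most loosely bound subunit (ENSMUSG00000031697.12), had 101, 89.5 and 117 footprint CPM in WT libraries 1 to 3 and 79.8, 88.7 and 66.8 in KO. The groups did not overlap, though WT 2 and KO 2 were less than 1 CPM apart. Its log2 fold change was -0.35 with an SE of 0.13 (edgeR FDR 0.107; 0.2 with the block). RNA-seq gave no such difference for Orc6: 25.1, 28.7 and 26.3 CPM in WT and 28.8, 24.9 and 27.7 in KO, at overlapping levels and a log2 fold change of 0.03. The authors' deposited table lists Orc6 as significantly down in footprints, at a log2 fold change of -0.328 and an adjusted p of 0.0368.

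Orc3, a core subunit, was the only one above 0 in footprints, and was not called by edgeR. It had 76.4, 85.3 and 80.6 CPM in WT and 97.2, 86.9 and 91.8 in KO, without overlap (log2 fold change 0.19, SE 0.06; edgeR FDR 0.0866). Orc1, the ATPase subunit that varies through the cell cycle, had the largest RNA-seq value, 0.31, with WT at 7.47, 8.93 and 9.78 CPM and KO at 12.4, 10.7 and 9.61 CPM. Its groups overlapped through WT 3 and KO 3, and its 95% interval was -0.04 to 0.66 (edgeR FDR 0.258). Orc2, Orc4 and Orc5 had overlapping groups in both assays.

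Among the helicase loaders, Cdt1, whose activity geminin restrains outside G1, had the lowest footprint FDR of the 43 genes. Its footprint levels were 178, 169 and 181 CPM in WT and 155, 164 and 152 in KO. All 3 WT libraries were above all 3 KO libraries. The log2 fold change was -0.16, with an SE of 0.05 (edgeR FDR 0.053; 0.394 with the block). In RNA-seq Cdt1 overlapped, with WT 3 highest at 50 CPM and KO 3 lowest at 30.7. Cdc6, the ATPase that works with Cdt1, had footprint and RNA-seq log2 fold changes of -0.05 and 0.05, with overlapping groups in both.

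The 6 subunits of the MCM helicase, which unwinds DNA ahead of the fork, stayed within 1.2-fold in both assays, and all 12 of their 95% intervals lay within 1.5-fold. Mcm4 had the lowest RNA-seq FDR of the 43 genes. Its RNA-seq levels were 94.9, 106 and 99.4 CPM in the libraries labelled WT and 126, 111 and 120 in those labelled KO. The groups did not overlap, and the log2 fold change was 0.25 with an SE of 0.07 (edgeR FDR 0.0933; 0.627 with the block). In footprints Mcm4 overlapped, at 461, 486 and 517 CPM in WT and 547, 520 and 485 in KO (log2 fold change 0.09).

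Mcm5 had 500, 506 and 521 footprint CPM in WT and 485, 477 and 462 in KO. Every WT library was above every KO library, with a log2 fold change of -0.10 and an SE of 0.04 (edgeR FDR 0.108). Mcm3 also had no overlap in footprints, with WT at 603, 612 and 653 CPM and KO at 598, 588 and 547 (log2 fold change -0.11, edgeR FDR 0.2). Mcm2, Mcm6 and Mcm7 overlapped in both assays, with footprint log2 fold changes of -0.03, 0.07 and -0.02. The subunits, which form a ring with 1 copy of each, thus did not share a direction: 2 were above 0 and 4 below in each assay.

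The E-type cyclins, which switch on Cdk2 at the start of S phase, had the lowest median footprint and translation values of the roles, -0.38 and -0.49. Ccne1 (ENSMUSG00000002068.16) had 29.8, 32.9 and 39.6 footprint CPM in WT and 26.3, 24 and 18.7 in KO. The lowest WT library was above the highest KO library, and the largest gap was between WT 3 and KO 3. The log2 fold change was -0.51 (SE 0.14), a level 29.9% lower, at an edgeR FDR of 0.0545, with the block 0.132. Without WT replicate 1 it was called (log2 fold change -0.60, edgeR FDR 0.0474); in the other 5 omissions of 1 library the FDR was 0.0708 to 0.13. The authors' deposited table lists Ccne1 as significantly down in footprints, at a log2 fold change of -0.444 and an adjusted p of 0.013.

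In RNA-seq Ccne1 differed by less than its spread, with 14.9, 15.8 and 17.2 CPM in WT and 16.5, 15.6 and 14.2 in KO (log2 fold change -0.05). Ccne2 had 73.7, 82.1 and 89.6 footprint CPM in WT and 75, 67.7 and 60.9 in KO. Only WT 1 and KO 1 overlapped, and the log2 fold change was -0.25 (SE 0.10; edgeR FDR 0.125). Its RNA-seq value had the opposite sign, 0.26, with overlapping groups (edgeR FDR 0.316). Apart from Orc6 and Ccne1, the authors' deposited tables list none of the 43 genes as significant in either assay.

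The Cdc7-Dbf4 kinase, which phosphorylates the helicase so that it can fire, was close to even. Cdc7 had 54.7, 61.4 and 61.3 footprint CPM in WT and 70.6, 63 and 62.8 in KO, without overlap (log2 fold change 0.15, edgeR FDR 0.184). Dbf4, its activating subunit, had log2 fold changes of 0.03 in RNA-seq and -0.02 in footprints with overlapping groups.

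Of 6 factors that activate the helicase none was called in footprints by edgeR, with 3 above and 3 below 0. Mcm10 had 101, 108 and 110 CPM in WT and 100, 93.5 and 91.6 in KO, and Cdc45, part of the active helicase, had 95.7, 101 and 104 in WT and 95.5, 90 and 87.1 in KO. In each the groups just failed to overlap, at replicate 1 of both genotypes (log2 fold changes -0.16 and -0.14; edgeR FDR 0.0881 and 0.114). Of the 4 GINS subunits, which bind each other in a ring, 2 had no overlap and were higher in KO footprints. Gins4 had 55.5, 55.1 and 57.2 CPM in WT and 61, 61.3 and 58.9 in KO (log2 fold change 0.12, edgeR FDR 0.0771). Gins2 had 18.9, 20.6 and 18 in WT and 22.9, 20.7 and 24.1 in KO (0.21, edgeR FDR 0.13). Gins1 and Gins3 overlapped in footprints, at -0.17 and 0.07. In RNA-seq Gins3 had 19.9, 18.1 and 19.6 CPM in WT and 20.2, 22.3 and 20.3 in KO, without overlap (log2 fold change 0.12, edgeR FDR 0.524).

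RPA, the protein of 3 subunits that coats single-stranded DNA, held the lowest RNA-seq value. Rpa3, its smallest subunit, had 13, 11.2 and 12.1 CPM in libraries labelled WT and 8.78, 10.4 and 9.36 in those labelled KO. The groups did not overlap, and the log2 fold change was -0.36 with an SE of 0.11 (edgeR FDR 0.0991; 0.683 with the block). In footprints Rpa3 was at 44, 48 and 42.3 CPM in WT and 48.8, 44.3 and 50.6 in KO, overlapping, at 0.08. Rpa1 and Rpa2 had RNA-seq log2 fold changes of 0.19 and 0.22 and footprint values of 0.06 and 0.04, with overlap in both assays.

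Primase and polymerase alpha, which make the RNA-DNA primers, were above 0 in RNA-seq in 4 of 4 genes. Pola1, the catalytic subunit, had 111, 128 and 121 CPM in WT and 155, 133 and 143 in KO. KO lay above WT in every library (log2 fold change 0.26 ± 0.08, SE; edgeR FDR 0.114 and, with the block, 0.607). In footprints it was even, at -0.02, with overlapping groups. Pola2, Prim1 and Prim2 had RNA-seq log2 fold changes of 0.09, 0.04 and 0.08 and overlapped in both assays.

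For the replicative polymerases the leading-strand enzyme is epsilon and the lagging-strand enzyme delta. Pole2, an accessory subunit of epsilon, had 29.4, 37.1 and 40.7 footprint CPM in WT and 32.5, 26.2 and 23.1 in KO. The groups overlapped through replicate 1, and the log2 fold change was -0.35 with a wide interval of -0.73 to 0.03 (edgeR FDR 0.179). Pole, the catalytic subunit, was at 0.05 in footprints. Pold1 and Pold2, subunits of delta, were at -0.03 and 0.05 in footprints; their RNA-seq intervals, -0.69 to 0.40 and -0.82 to 0.62, were too wide to place them within 1.5-fold.

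Pcna, the sliding clamp, varied most between footprint libraries of 1 group, at 274, 327 and 416 CPM in WT and 374, 324 and 242 in KO. Its coefficient of variation in WT was 21.2%, the highest of the 43 genes in footprints, and its log2 fold change of -0.10 lay well inside that spread (95% interval -0.58 to 0.37). In the clamp loader, Rfc1, the large subunit, had the lowest spread in RNA-seq, 0.905% in WT. Its RNA-seq levels were 126, 124 and 126 CPM in WT and 137, 139 and 136 in KO, without overlap (log2 fold change 0.14 ± 0.05, SE; edgeR FDR 0.142 and, with the block, 0.811). Rfc2 to Rfc5 had log2 fold changes between -0.0049 and 0.08 in RNA-seq and between -0.10 and 0.10 in footprints. Fen1, the flap nuclease, and Lig1, the ligase that seals Okazaki fragments, were at -0.07 and -0.01 in footprints with overlapping groups in both assays.

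Groups without overlap between the genotypes were thus found for 5 of 43 genes in RNA-seq (11.6%), 4 higher and 1 lower, where 30.9% of all genes had none. The 5 were Mcm4, Gins3, Pola1 and Rfc1, higher, and Rpa3, lower. In footprints they were found for 11 of 43 (25.6%), 4 higher and 7 lower, where 38.1% of all genes had none. The 4 higher were Orc3, Cdc7, Gins2 and Gins4, and the 7 lower were Orc6, Cdt1, Mcm3, Mcm5, Ccne1, Mcm10 and Cdc45. No gene was in both lists, and both shares were below those of all genes.

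**Figure D2:**
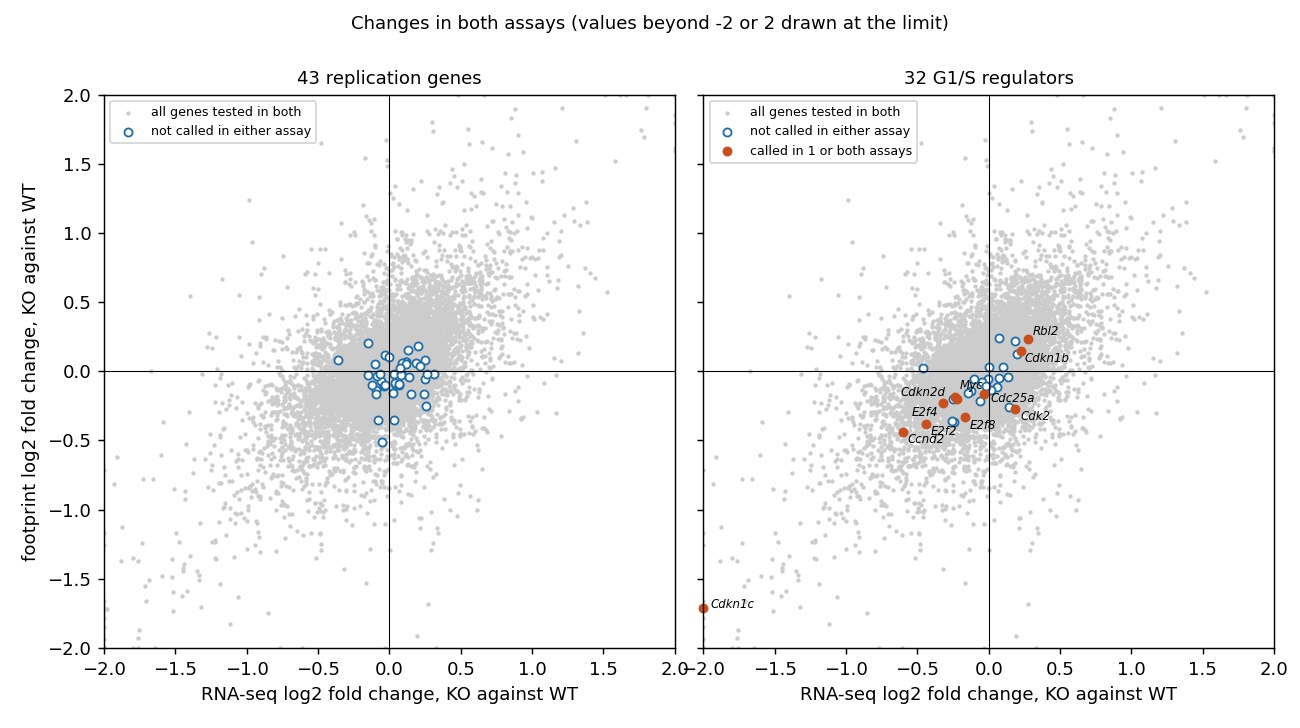
Log2 fold change of KO against WT in RNA-seq (x axis) and footprints (y axis) for the 43 replication genes (left) and 32 regulators of the G1/S transition (right) over all genes tested in both assays (grey). By edgeR's test no replication gene is called, while filled points mark the regulators called in RNA-seq or footprints.

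In the test of translation the median of the 43 genes was -0.08 on the log2 scale, with 10 above and 33 below 0, against 0.01 over all genes. None was called, and the lowest FDR was 0.196 for Rpa3 (edgeR interaction; 0.44, SE 0.14), whose RNA-seq level was lower in KO while its footprint level was not. The other genes at an unadjusted p under 0.05 were below 0: Ccne2 at -0.52, Ccne1 at -0.47, Gins1 at -0.42, Orc6 at -0.39 and Orc5 at -0.32 (edgeR FDR 0.221 to 0.336). All 6 origin recognition genes were below 0, with a median of -0.32. A median below 0 was also found in the other proliferation lists described below. It was -0.19 for 20 genes of mitosis, 16 of them below 0, and -0.04 for 8 genes of chromatin replication. For the 32 other fork and origin genes and the 32 regulators of the G1/S transition it was -0.05 each. The test was less precise than the assays alone: the 95% interval lay within 1.5-fold for 29 of 43 genes, against 58.5% of all genes, and for 25 of 43 with the block.

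Within WT, the replication genes had more footprints per RNA read than most genes. The ratio of mean footprint CPM to mean RNA-seq CPM had a median of 2.7 over the 43 genes, against 0.87 over 11853 genes and 0.938 over 10303 protein-coding genes. Above the median of all genes lay 41 of 43, and 33 lay above the 75th percentile; over protein-coding genes the counts were 40 and 32. In KO the medians were 2.48 for the replication genes and 0.892 for all genes. The ratio is a description with no test: it also depends on how much of a transcript is coding sequence, for which it was not corrected, and a CPM is relative to the other genes of its assay.

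Roles differed in this ratio. All 6 MCM genes lay above the 75th percentile, at 2.83 (Mcm7) to 5.01 (Mcm3) and a median of 4.17. Pcna had 4.36, polymerase delta a median of 3.82, RPA 3.31, Fen1 and Lig1 3.15 and 3.17. Primase and polymerase alpha had a median of 1.72 and the clamp loader 1.5. The firing kinase had 0.812, near all genes.

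The highest ratio was that of Rfc4, a small clamp loader subunit, at 7.4, with 14.1, 15.9 and 15.2 RNA-seq CPM and 101, 111 and 123 footprint CPM in WT. In the same complex Rfc3 had 3.8, and Rfc1, Rfc2 and Rfc5 had 1.43, 1.5 and 1.34. Over pairs of WT libraries the ranges were 6.33 to 8.68 for Rfc4, 3.44 to 4.18 for Rfc3 and at most 1.74 for the other 3, so none of these 3 sets met. Rfc4 overlaps Eif4a2 in the RefSeq annotation, and the strand setting of the counting is not given in the sources used here, so its value is uncertain. Next were Mcm3, with 114, 115 and 143 RNA-seq CPM and 603, 612 and 653 footprint CPM, at 5.01, and Mcm4, with 94.9, 106 and 99.4 and 461, 486 and 517, at 4.87. The ranges over library pairs of Mcm3, 4.21 to 5.73, and Mcm4, 4.34 to 5.45, overlapped.

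The lowest ratios were those of Dbf4, Gins3 and Orc4. Dbf4 had 76, 84.8 and 69.4 RNA-seq CPM and 49.5, 53.7 and 53.4 footprint CPM in WT, a ratio of 0.681. Gins3 had 19.9, 18.1 and 19.6 RNA-seq CPM and 13.6, 15.7 and 13.9 footprint CPM, a ratio of 0.752. It stood apart from Gins1, Gins2 and Gins4 of the same complex, at 3.98, 1.96 and 2.07, whose ranges over library pairs began at 1.45. Orc4 had 92.7, 90.1 and 67.2 RNA-seq CPM and 70.4, 78 and 71.2 footprint CPM, a ratio of 0.878. The ranges of Dbf4, 0.584 to 0.774, and Gins3, 0.686 to 0.867, ended below 0.87, the median of all genes, while the range of Orc4, 0.76 to 1.16, spanned it.

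**Figure D3:**
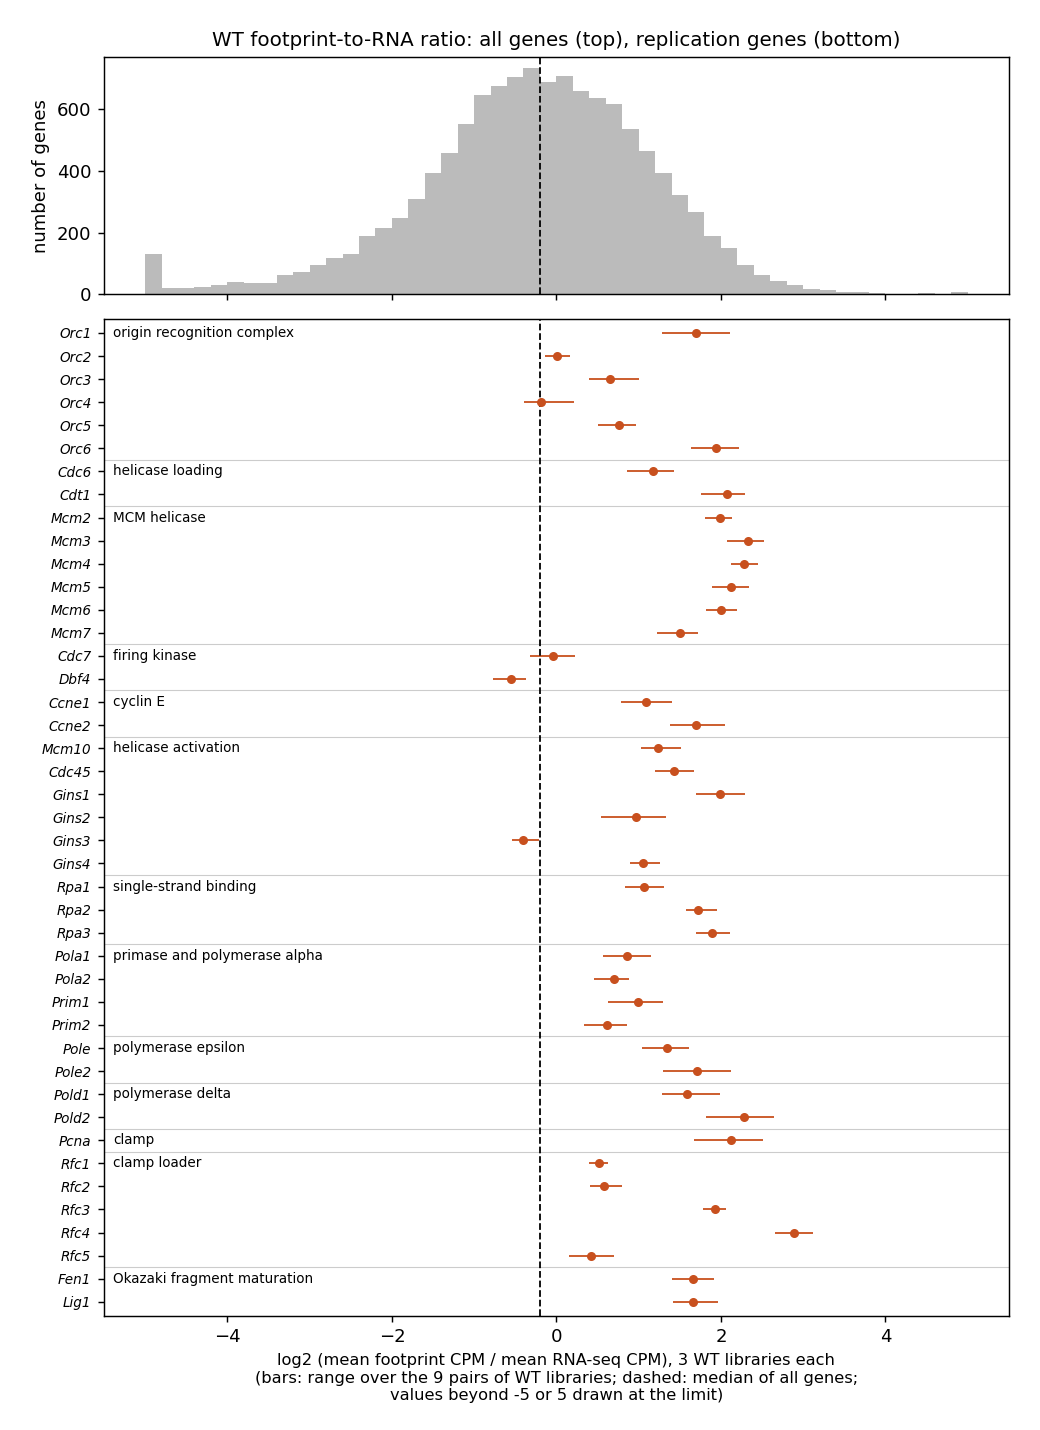
Log2 of mean footprint CPM over mean RNA-seq CPM in the 3 WT libraries of each assay: number of genes for all genes (top) and each replication gene with its range over pairs of WT libraries (bottom), with the median of all genes dashed. All 6 MCM genes lie to the right of the dashed line, and Dbf4, Gins3, Orc4 and Cdc7 lie left of 0.

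Other proliferation lists, chosen with earlier results of these data known, had WT ratios on both sides of that of the replication genes. The median was 2.77 for 20 genes of mitosis and 2.52 for 8 genes of chromatin replication. It was lower for 32 other fork and origin genes, at 1.58, and for 32 regulators of the G1/S transition, at 0.84, below the 0.87 of all genes. The marker lists of stages and cell types given below also had medians above 0.87, apart from 5 erythroid genes at 0.812. The median was 1.78 for 12 thymocyte markers, 3.42 for 4 genes of thymic epithelium and 5.61 for 6 of macrophages and granulocytes. A ratio above that of all genes was thus not particular to proliferation lists.

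The replication genes moved together between libraries of 1 genotype. In footprints 4 of 43 were above their WT group mean in WT 1, 26 in WT 2 and 35 in WT 3, and 40, 18 and 7 were above their KO mean in KO 1, 2 and 3. In RNA-seq the counts were 9, 25 and 32 in WT and 34, 20 and 11 in KO. Of all genes, between 49.4% and 52.6% were above their group mean in any library. The scaling of library totals centres the bulk of genes, so that share was largely set in advance and is no contrast. The summed level of the 43 genes was 6850, 7230 and 7680 footprint CPM in WT and 7510, 7110 and 6660 in KO, and 2390, 2600 and 2730 RNA-seq CPM in WT and 2910, 2680 and 2530 in KO. The genotypes overlapped in both sums. The summed level of the 20 mitosis genes ran the same way in footprints, at 5700, 6180 and 6560 CPM in WT and 6050, 5600 and 5240 in KO. WT 1 and KO 1, and WT 3 and KO 3, lay on opposite sides of their means, as in the mirrored deviations of all genes, so the KO pattern is not separate evidence. In such bulk samples, fewer replicating cells and less RNA per cell cannot be told apart.

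**Figure D4:**
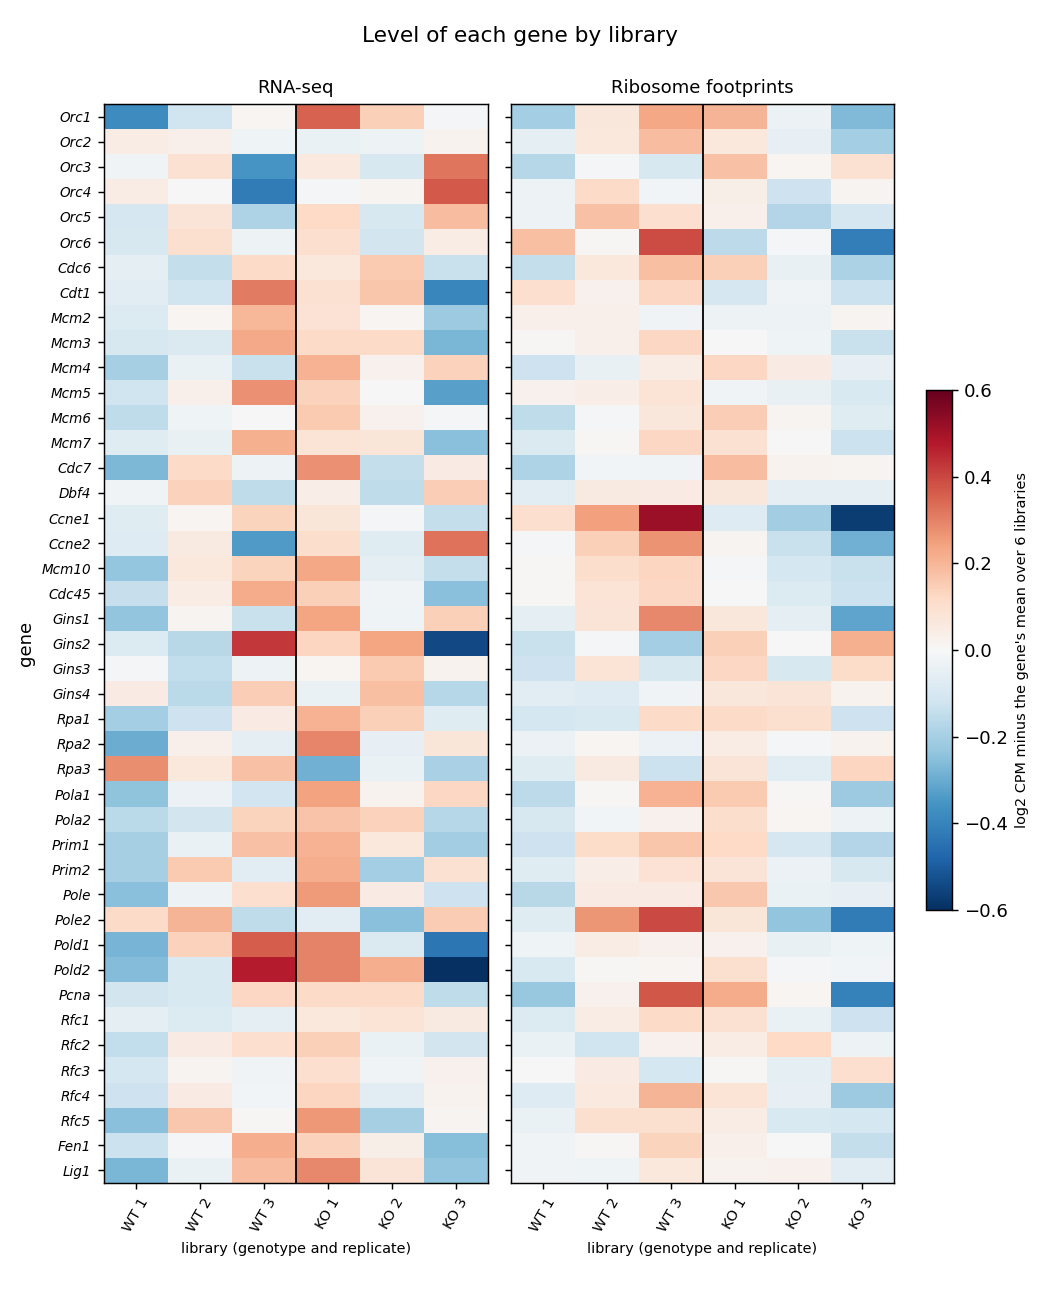
Colour gives log2 CPM minus the gene's own mean over the 6 libraries of an assay, for each replication gene (y axis) and each library (x axis), RNA-seq left and footprints right. KO 1 is mostly red, above the mean, and WT 1 mostly blue in both assays, while the footprint values of Ccne1 are red in WT and blue in KO.

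Of 32 tested other fork and origin genes, 0 were called in RNA-seq and 5 in footprints (edgeR, FDR under 0.05), none with the block. The footprint count is near the 17.6% of all genes called there, and nothing is read from it. Higher in KO were Chtf8 (log2 fold change 0.42, FDR 0.01) and Dscc1 (0.45, FDR 0.00604), subunits of an alternative clamp loader that helps hold sister chromatids together. Lower were Rnaseh2c (-0.31, FDR 0.0132), of the enzyme that removes ribonucleotides from DNA, Dna2 (-0.29, FDR 0.02), a nuclease of Okazaki fragments, and Top1 (-0.15, FDR 0.0299), a topoisomerase. Dscc1 had 11.4 ± 0.436 footprint CPM in WT and 15.7 ± 0.618 in KO (SD, n = 3), with no overlap. Of 8 genes of chromatin replication 0 were called in either assay, and of 20 of mitosis only Foxm1, lower in footprints (-0.17, FDR 0.0355, with the block 0.465).

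Regulators that act before replication included called genes. Of 32 tested, 2 fell in RNA-seq, where 6.91% of all genes were called, a share like that of the list (edgeR, FDR under 0.05). In footprints 9 fell and 2 rose, where 17.6% of all genes were called. Their median log2 fold changes were -0.04 and -0.14, against -0.00053 and -0.009 over all genes. E2f2, an activating E2F, had 350 ± 25.5 RNA-seq CPM in WT and 258 ± 20.5 in KO (SD, n = 3). It fell in RNA-seq (log2 fold change -0.44, FDR 0.0325) and in footprints (-0.38, FDR 0.0192). Ccnd2, a D-type cyclin, fell from 231, 201 and 238 to 142, 165 and 137 RNA-seq CPM (-0.60, FDR 0.0219) and in footprints by 0.44 on the log2 scale (FDR 0.0423). In footprints Myc fell (-0.19, FDR 0.00917), as did the CDK inhibitor Cdkn1c (-1.71, FDR 0.0136), from 4.64 to 1.43 CPM, and E2f8, a repressor (-0.33, FDR 0.0175). With the block only the Cdkn1c fall in footprints was called (FDR 0.0446). Members of this list act in opposite directions on S-phase entry: Myc, Ccnd2 and Cdc25a promote it, E2f8, Cdkn1c and Cdkn2d restrain it, and of the pair that rose, Rbl2 and Cdkn1b, each is known as a brake. Whether these changes differ from those of the replication genes was not tested.

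Stage and lineage markers moved in the same libraries, and their part in the values above was not tested. Calls are by edgeR at an FDR under 0.05, where 6.91% of all genes were called in RNA-seq and 17.6% in footprints. None of the markers given here was at 0 reads in an assay. Of 12 thymocyte markers 0 were called in RNA-seq, where they summed to 15400 to 16900 CPM in WT and 14500 to 15700 in KO. In footprints 5 were called, Cd4 and Themis higher and Rag1, Ptcra and Lck lower, with sums of 23700 to 24500 and 23100 to 23900 CPM. Of 10 genes of double-negative and blast stages, 7 passed the low-count filter and were tested in RNA-seq and 8 in footprints. Il2ra rose in RNA-seq, from 53.1 ± 4.94 to 95.5 ± 8.05 CPM (SD, n = 3; edgeR FDR 0.00675 and, with the block, 0.0198). It also rose in footprints, where Ptcra fell. These 10 genes summed to 491 to 579 CPM in WT and 529 to 624 in KO in RNA-seq, and to 844 to 872 and 918 to 944 CPM in footprints. Notch1 made up most of the RNA-seq sums, with 407 CPM in WT and 420 in KO. Of the tested genes, 4 lay above and 3 below 0 in RNA-seq, and 4 above and 4 below in footprints.

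Among markers of the single-positive stage, Cd69 rose and Klf2 and Ccr7 fell in RNA-seq. With the block their edgeR FDRs were 0.104, 0.141 and 0.11, so none was called. In footprints Cd69 and Cd5 rose, and neither Klf2 nor Ccr7 was called lower. Markers of cells other than thymocytes were at lower sums. With the replicate block no RNA-seq call named below remained (edgeR FDR 0.0534 for S100a8 to 0.589 for Pecam1). Ranges in brackets from here on are sums over each whole list, in WT and then KO, not levels of the genes named. Of 6 B-cell markers only Cd79b was called, higher in footprints, with sums of 13.5 to 20.7 and 18.1 to 26.5 CPM in RNA-seq and 44 to 58.8 and 56.7 to 76.8 in footprints. Of 7 macrophage and granulocyte markers, 7 were tested in RNA-seq and 6 in footprints. The granulocyte genes S100a8 and S100a9 rose in RNA-seq (66.8 to 78.1 and 80 to 99 CPM) and S100a8 and Mpo in footprints (278 to 382 and 360 to 526). The macrophage genes Csf1r and Adgre1 were not called and lay below 0, at log2 fold changes of -0.38 and -0.19 in RNA-seq and -0.12 and -0.15 in footprints. Of 4 dendritic-cell markers Siglech fell in RNA-seq (14.6 to 19.8 and 9.36 to 14.6 CPM) and Siglech and Flt3 in footprints (37.6 to 46.3 and 24.8 to 33.7). Of 6 erythroid markers, 5 tested in each assay, Hbb-bs fell in RNA-seq (76 to 90.9 and 46.6 to 58.4 CPM) and Alas2 in footprints (40.7 to 75.6 and 34.8 to 74.1). Of 5 markers of thymic epithelium, 4 tested in RNA-seq, Krt5 fell in RNA-seq (18.9 to 22.2 and 14.2 to 17.3 CPM) and Epcam in footprints (75.5 to 82.3 and 59.8 to 70.5). Of 5 markers of fibroblasts and vessels, 3 tested in RNA-seq, Pecam1 rose in RNA-seq (190 to 195 and 218 to 225 CPM) and in footprints (174 to 200 and 194 to 226). Pecam1 made up most of the RNA-seq sums, with 171 CPM in WT. Cdh5, the other vessel gene of the list, did not pass the low-count filter in RNA-seq. Which cells the Pecam1 reads came from was not tested. The fibroblast genes Col1a1 and Col1a2 were not called and lay at -0.43 and -0.30 in RNA-seq and at 0.29 and -0.0032 in footprints.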

How the data were processed

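The 12 libraries were grouped by the assay, genotype and replicate number in their titles. The authors deposited whole-number read counts for Ensembl genes in a table for each assay, whose name calls them adjusted; the labels do not say what was adjusted. The submitters' processing notes name FastQC, Bowtie2 2.5.1, STAR 2.7.10a, HTSeq 2.0.3 and DESeq2 1.40.2. No build, annotation or strandedness of counting is stated there (not given in the sources used here). Rows for reads outside genes or not assigned to 1 gene, 71.5% to 73% of counted reads in RNA-seq and 26.9% to 27.7% in footprints, were left out. From the authors' own deposited comparison of each assay, symbols, log2 fold changes and adjusted p-values were copied; its 12 columns of per-library values were not used.

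Each assay was fitted over all genes with edgeR 4.0.16 in R 4.3.3: TMM, filterByExpr with a minimum count of 10, quasi-likelihood tests comparing KO with WT and Benjamini-Hochberg adjustment, called at an FDR under 0.05. Translation was the interaction of genotype and assay over 12 libraries. CPM values are deposited counts over TMM-scaled totals, and intervals are 95%. Results were recomputed with DESeq2 1.42.0, with RLE scaling, without the low-count filter, with replicate number as a block, in 1 fit over both assays, at other thresholds and with each library omitted. The fits were tested on simulated data. The numbers are not said to mark shared mice or days, and same-numbered WT and KO libraries correlated negatively, so they were not taken as pairs.

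The 43 genes, their roles and the other lists were chosen with earlier results of these data known. Every one of the 43 was to be accounted for; with none called, genes with the lowest p or no overlap were given per library, chosen after their values were seen, besides the 3 highest and 3 lowest WT ratios. From the other lists, called genes were named by smallest p. A marker of the single-positive stage, and the summed level of that list, are not reported here. Of the 43 genes, 20 overlap another gene in the RefSeq annotation of GRCm38.p6, so without a stated strand setting some of their reads may belong to a neighbour. Promoter and microRNA sequences came from RefSeq tables of that build. Footprint density per codon was not computed, since coding lengths were not used here.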

Additional observations from a re-analysis of the deposited data

How the results depend on the processing

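The count of 0 replication genes called in RNA-seq became 1 in the joint fit of 12 libraries (Mcm4, FDR 0.0482) and 2 at an FDR under 0.1 (Mcm4 and Rpa3). In footprints DESeq2 called 2, the joint fit 2 and the fit that kept low counts 2, Orc6 and Ccne1 each time, and an FDR under 0.1 called 5. With 1 library left out it was 0 in RNA-seq and for translation and 0 to 1 in footprints, where Ccne1 was called without WT replicate 1. The cause was not tested, apart from the looser threshold. With the replicate block 0 replication genes were called in any of the 3 tests, and the calls over all genes went to 110 in RNA-seq, 408 in footprints and 2 for translation, from 943, 2376 and 25; the numbers are shared labels with mirrored deviations, not known pairs.

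With 1 library left out the median log2 fold change of the 43 genes was -0.0055 to 0.083 in RNA-seq. It was -0.088 to 0.0056 in footprints and -0.164 to -0.047 for translation, so the sign in RNA-seq depends on replicate 1 of either genotype and that in footprints on replicate 3. Single uncalled genes changed sign in 42 of 473 recomputed RNA-seq values, 22 of 473 in footprints and 45 of 688 for translation, at sizes of 0.16 or less. The median log2 WT ratio of 1.43 ranged from 1.35 without RNA-seq WT replicate 1 to 1.53 without RNA-seq WT replicate 3; against protein-coding genes, a background chosen after seeing the data, 40 of 43 genes were above the median in place of 41. In RNA-seq Gins2 had the fewest reads, 370 over 6 libraries, and Pold2 and Gins2 the widest SEs, 0.30 and 0.25. Footprint density per codon, planned, was not run.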
